A study of Mus musculus with 6 samples.

Results

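Cell cycle and DNA replication genes were examined in peritoneal macrophages of mice that overexpress angiotensin-converting enzyme (ACE) and of wild-type mice. The 38 genes were chosen by symbol, and each was found on 1 row of a table of 25509 genes, and all 38 passed the filter on low counts that left 12827 genes to test. They fall into 13 genes of DNA replication, 22 of mitosis and 3 regulators of the G1 phase. Every library came from thioglycollate-elicited peritoneal macrophages of C57BL/6 mice, drawn into the cavity by an injected irritant and taken 4 days later. They were purified on a Percoll density gradient, and the cells that stuck to a dish within 2 h were kept. The groups were Tg-ACE, labelled JWT (Tg-ACE) and described as ACE overexpression, with 3 libraries, and WT, with 3 libraries. The descriptions add a code: Exp-156b on replicates 2 and 3 of both genotypes, Exp-156 on replicate 1 of both. The promoter and cell type of the transgene, the age of the mice and whether a library stands for 1 animal or a pool are not given in the sources used here. No label says that the libraries of a group came from separate mice, so p-values measure only the spread between these libraries, which may be technical.

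A cell that leaves rest passes the G1 phase under D- and E-type cyclins, which with their kinases release E2F transcription factors from the retinoblastoma protein. E2F targets then load and fire replication origins and make deoxynucleotides, and a later wave of genes controlled by the MuvB complexes builds the spindle, the kinetochores and the division furrow. Elicited macrophages derive largely from blood monocytes, and both they and resident peritoneal macrophages can divide in the cavity. Message levels of these genes in a bulk library are a mixture of how many cells cycle and how much message each one holds.

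Library totals ran from 24294260 to 28120415 counts, so that 3 counts, the smallest level treated as detected, equal 0.107 to 0.123 counts-per-million (CPM). The lowest count of any member in any library was 35. The transgene's product, Ace mRNA, stood at 101, 25.6 and 31.8 CPM in Tg-ACE replicates 1, 2 and 3, against 16.7, 7.6 and 11.6 CPM in WT replicates 1, 2 and 3, with no overlap of the genotypes (log2 fold change 1.95, edgeR adjusted p = 0.137). The first principal component, 74.6% of the variance, set the experiment codes apart, and so did the sex markers Xist (327 to 454 CPM in Exp-156b and at most 0.527 CPM in Exp-156) and Ddx3y. Experiment code and sex therefore cannot be told apart. Macrophage markers summed to between 17981 and 21913 CPM in every library, most of it the lysozyme message Lyz2 (14309 to 18017 CPM). Erythroid markers summed to at most 1.48 CPM and T and NK cell markers to at most 11.5 CPM. Markers of myeloid progenitors, which cycle, summed to between 9.74 and 11.3 CPM, most of it Cd34 (6.65 to 10.2 CPM). The sum hides the other genes of that list. Mpo (1.43 CPM) and Elane (0.558 CPM) were highest in Tg-ACE replicate 2, and Prtn3 was lower in Exp-156b than in Exp-156 (log2 fold change -1.94).

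Per kilobase of exon, the median member held 3.71 CPM per kb among replication genes, 1.62 among mitosis genes and 2.31 among the G1 regulators, where the median of all tested genes was 4.64. Pcna, the sliding clamp that holds polymerases on DNA, was the most abundant member at 73.2 ± 10.3 CPM per kb (SD, n = 6). Cdt1, which loads the replicative helicase on origins, followed at 15.4 ± 4.85, and the helicase subunits Mcm3 and Mcm6 at 10.2 ± 0.649 and 9.94 ± 0.933 CPM per kb differed by less than their spread. In the mitosis class Cenpa, the centromeric histone, led with 5.03 ± 0.633 CPM per kb, before the spindle assembly factor Tpx2 with 3.42 ± 0.531 and the B-type cyclin Ccnb2 with 2.81 ± 0.872. The lowest was the kinetochore gene Cenpf at 0.208 ± 0.0492. E2f1, an activating E2F, stood at 6.07 ± 1.37 CPM per kb, and the cyclins Ccnd1 (2.31 ± 1.41) and Ccne1 (1.92 ± 0.653) lay within their spread of each other (SD, n = 6 throughout). Exons of Ccnd1 share 23.4% of their length with the opposite-strand gene Oraov1 (LTO1 in the annotation), those of Kif20a 29.3% with Cdc23, of Ube2c 22.8% with Tnnc2 and of Ccna2 12.5% with Exosc9. Whether counting used strand is not given in these sources, so reads of such partners cannot be told apart. Tnnc2 itself had at most 0.0355 CPM in any library.

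Promoters of replication and mitosis genes are known to carry different control letters. RefSeq promoters (GRCm38.p6) were matched for 32 of the 38 genes, 12 of replication, 18 of mitosis and 2 G1 regulators, and the 250 bases before the start given there were searched on both strands. That start is not always the outermost one: against the gene ends of GENCODE vM21 on the same build, the windows of E2f1, Cdc6 and Mcm7 lay wholly inside the gene, and those of Pcna, Cenpa and Ccnb1 held 134, 109 and 84 of their bases inside it. The letters TTTGAA, the core of the cell cycle homology region bound by MuvB complexes, stood in 7 of 18 mitosis promoters (38.9%), 2 of 12 replication promoters (16.7%) and 16% of all 32851 promoters of the table. TTTNNCGC, an E2F motif, stood in 4 of 12 replication promoters (33.3%), 1 of 18 mitosis promoters (5.56%) and 4.28% of all. Of those 4 replication genes, Cdc6 and Mcm7 have their window inside the gene, and with all 6 genes of more than 50 bases inside left out the E2F letters stood in 2 of 9 replication promoters (22.2%) and the homology region core in 7 of 16 mitosis promoters (43.8%). CCAAT, the box bound by NF-Y, stood in 16 of 18 mitosis promoters (88.9%), 9 of 12 replication promoters (75%) and 33.8% of all. The variant TTCGAA was rarer, with 2 of 18 mitosis promoters, 1 of 12 replication promoters and 1.34% of all. Members were counted once per gene, and Mcm7 was taken to hold letters found in either of its 2 windows. The shares of all promoters count each promoter separately, so the units differ. The window of Ccne1 held none of these letters, and for E2f1 the sequence before its outermost start was not analysed here. Such matches are a description of the letters and not of a bound site. Shown are 2 mitosis genes with the homology region core, the NF-Y box and low message in Tg-ACE replicate 2 (Mki67 and Top2a), 2 replication genes with the E2F letters (Mcm6 and Mcm5), and Cdt1 and Kif23, which had the largest difference between experiment codes in their classes. Capitals mark these 4 motifs or their reverse complements, and overlapping matches run together, as where TTTNNCGC meets its own complement in Mcm6 and Mcm5.
Mki67: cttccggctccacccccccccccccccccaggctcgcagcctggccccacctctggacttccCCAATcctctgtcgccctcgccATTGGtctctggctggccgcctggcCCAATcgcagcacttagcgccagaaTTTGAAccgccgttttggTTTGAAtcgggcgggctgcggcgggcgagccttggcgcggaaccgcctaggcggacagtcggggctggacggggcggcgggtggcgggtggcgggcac
Top2a: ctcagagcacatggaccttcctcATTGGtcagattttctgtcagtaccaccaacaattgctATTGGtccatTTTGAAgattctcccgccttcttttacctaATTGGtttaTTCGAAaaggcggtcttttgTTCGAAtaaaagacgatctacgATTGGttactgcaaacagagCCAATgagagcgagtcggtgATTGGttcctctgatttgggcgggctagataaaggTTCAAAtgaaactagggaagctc
Mcm6: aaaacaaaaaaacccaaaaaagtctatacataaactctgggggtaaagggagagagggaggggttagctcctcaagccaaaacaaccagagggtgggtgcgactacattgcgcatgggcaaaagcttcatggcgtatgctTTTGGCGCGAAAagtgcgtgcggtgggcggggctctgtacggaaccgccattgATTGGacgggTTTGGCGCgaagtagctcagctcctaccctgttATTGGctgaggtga
Mcm5: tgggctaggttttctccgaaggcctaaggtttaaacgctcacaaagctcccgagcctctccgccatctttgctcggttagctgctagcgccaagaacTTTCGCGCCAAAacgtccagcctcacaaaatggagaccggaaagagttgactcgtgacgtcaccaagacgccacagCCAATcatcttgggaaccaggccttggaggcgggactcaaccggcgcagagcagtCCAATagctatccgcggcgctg
Cdt1: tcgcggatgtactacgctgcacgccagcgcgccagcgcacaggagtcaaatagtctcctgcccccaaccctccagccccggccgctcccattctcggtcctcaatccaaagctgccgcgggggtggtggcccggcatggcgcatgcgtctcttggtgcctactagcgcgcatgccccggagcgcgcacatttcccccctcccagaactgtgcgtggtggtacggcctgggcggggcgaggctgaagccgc
Kif23: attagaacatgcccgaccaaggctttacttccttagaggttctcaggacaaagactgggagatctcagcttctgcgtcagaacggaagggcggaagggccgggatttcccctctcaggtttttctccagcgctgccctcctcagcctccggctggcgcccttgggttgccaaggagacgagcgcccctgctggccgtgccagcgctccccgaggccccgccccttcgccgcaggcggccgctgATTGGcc
The 250 bases lie at chr7:135716380-135716629 (reverse strand) for Mki67, chr11:99024190-99024439 (reverse strand) for Top2a, chr1:128359706-128359955 (reverse strand) for Mcm6, chr8:75109259-75109508 (forward strand) for Mcm5, chr8:122567765-122568014 (forward strand) for Cdt1 and chr9:61946800-61947049 (reverse strand) for Kif23. Each is written 5′ to 3′ toward its gene. Mki67 holds TTTGAA at 2 places and CCAAT at 3, Top2a holds TTTGAA and TTCGAA at 2 places each and CCAAT at 6, and Kif23 holds a single CCAAT. Cdt1 holds none of the letters searched.

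The first question was whether elicited macrophages with more ACE express cell cycle genes differently. With experiment code as a term in the model, the quasi-likelihood test of edgeR, adjusted by Benjamini-Hochberg over all 12827 genes, called 0 of 38 members. It called 0.0156% of all genes (2, neither a cell cycle gene), and Ace itself did not pass, so that a count of 0 members is no different from the background. At an unadjusted p under 0.05 there were 0 members and 831 genes, and DESeq2 and limma-voom also called 0 members. Summed over the class, replication genes held 445 ± 45 CPM in Tg-ACE and 442 ± 69.9 CPM in WT, mitosis genes 187 ± 39.2 CPM in Tg-ACE and 184 ± 15.4 CPM in WT, and G1 regulators 36.9 ± 11.2 CPM in Tg-ACE and 33.4 ± 8.7 CPM in WT (SD, n = 3 each). The share of cycling cells and the amount of message per cell cannot be told apart in these bulk values.

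**Figure D1:**
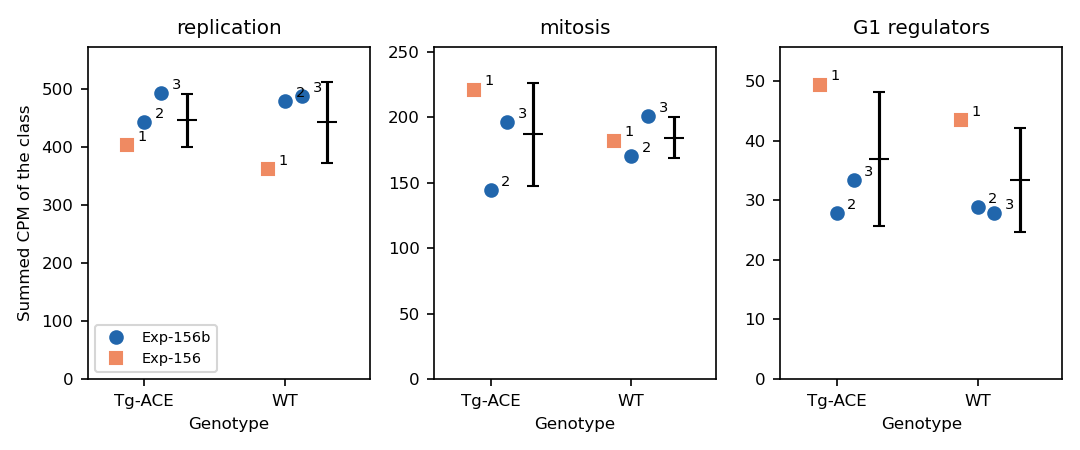
Summed CPM of the 13 replication, 22 mitosis and 3 G1 genes in each library, with Tg-ACE left of WT; numbers are replicate numbers, squares are Exp-156 and circles Exp-156b, and bars give the mean ± SD of 3 libraries. The mitosis sum of Tg-ACE runs from 144 to 221 CPM and takes in the whole WT range of 170.1 to 201 CPM.

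Fold changes (log2, Tg-ACE minus WT) ran from -0.24 for Bub1, a spindle checkpoint kinase, to 0.35 for Ccnb2, with standard errors from 0.07 to 0.29. The median was 0.05 for replication genes and 0.01 for mitosis genes, against -0.01 for all genes. Above 0 lay 24 of 38 members and 6200 of all 12827 genes. These medians turned sign with the libraries used. Without Tg-ACE replicate 1 they were -0.07 for replication and -0.14 for mitosis, and the same without WT replicate 1. Both settings give the same estimate by design. The code term takes up the Exp-156 library that remains, and genotype is then read from Exp-156b alone. Without Tg-ACE replicate 2 the medians were 0.17 and 0.22. In each of these fits 0 members were called. Without Tg-ACE replicate 2, 4 of 38 members (10.5%) and 749 of 12827 genes (5.84%) had an unadjusted p under 0.05. No member had libraries that did not overlap between the genotypes, whereas 4.91% of all genes did.

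Among replication genes, the helicase subunit Mcm3 held 41.5, 36.4 and 41.4 CPM in Tg-ACE replicates 1, 2 and 3, against 36.8, 36.2 and 38.4 CPM in WT replicates 1, 2 and 3. The subunit Mcm5 held 16.1, 13.1 and 17.1 CPM in Tg-ACE and 14.1, 12.7 and 15.8 CPM in WT. Both overlapped between genotypes, with log2 fold changes of 0.10 (SE 0.08) and 0.12 (SE 0.13) and edgeR adjusted p = 0.838 and 0.878. Cdc6, which loads the helicase together with Cdt1, was the lowest replication gene per kilobase (0.409 CPM per kb). It stood at 2.22, 1.71 and 1.97 CPM in Tg-ACE and 1.84, 2.63 and 2.46 CPM in WT (log2 fold change -0.22, SE 0.24). The helicase cofactor Cdc45 stood at 4.96, 4.9 and 5.8 CPM in Tg-ACE and 3.15, 5.15 and 6 CPM in WT (0.17, SE 0.19). For Cdc45 the low library was WT replicate 1, and the other 5 lay between 4.9 and 6 CPM.

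Among mitosis genes, Tpx2 had the smallest p of all members. It stood at 15.2, 16.3 and 19.3 CPM in Tg-ACE replicates 1, 2 and 3, against 11.9, 15.9 and 17.4 CPM in WT replicates 1, 2 and 3, a log2 fold change of 0.18 (SE 0.11, unadjusted p = 0.136, edgeR adjusted p = 0.797). The groups overlapped, since Tg-ACE replicate 1 lay below WT replicates 2 and 3. Cenpa stood at 33.3, 27.8 and 23.8 CPM in Tg-ACE and 33.1, 27.9 and 31.2 CPM in WT (-0.13, SE 0.09), where Tg-ACE replicate 3 was the lowest. Ccnb2 stood at 5.98, 2.79 and 5.76 CPM in Tg-ACE and 4.17, 3.02 and 4.09 CPM in WT (0.35, SE 0.28), so that Tg-ACE held both the highest and the lowest library. The proliferation antigen Mki67 did the same, with 30.0, 14.1 and 26.2 CPM in Tg-ACE and 23.4, 22.1 and 26.4 CPM in WT (-0.05, SE 0.23). Mki67 and the DNA topoisomerase Top2a were chosen after their values were seen. Top2a stood at 23.3, 14.7 and 21.9 CPM in Tg-ACE and 16.8, 19.1 and 23.3 CPM in WT (0.02, SE 0.19), again with the lowest value in Tg-ACE replicate 2. The remaining mitosis genes had log2 fold changes between -0.24 (Bub1) and 0.25 (Ube2c), among them the spindle motor Kif11 (0.22), the passenger complex subunit Birc5 (0.11), the checkpoint protein Bub1b (0.00), the kinetochore motor Cenpe (0.05) and the cyclin Ccna2 (-0.03).

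The second question was whether the genotypes differ alike within each experiment code. Within Exp-156, where 1 library stands against 1 and no test is possible, 37 of 38 members were higher in the Tg-ACE library, including all 13 replication and all 22 mitosis genes, while 48.7% of all genes were. The median log2 difference was 0.20 for replication genes and 0.31 for mitosis genes, against -0.01 for all genes. The largest were those of the ribonucleotide reductase subunit Rrm2 (0.76), Cdc45 (0.64), the mitotic cyclins Ccnb1 (0.52) and Ccnb2 (0.51), and Top2a (0.48), and the exception was Ccne1 (-0.08). Within Exp-156b, 26 of 38 members lay below 0 in Tg-ACE, as did 51.5% of all genes. The median in Exp-156b was -0.07 for replication genes and -0.14 for mitosis genes, against -0.01 for all genes. There edgeR called 0 members and 0.0156% of genes, with 0 members and 1341 genes at an unadjusted p under 0.05. The values lowest in Tg-ACE were Cdc6 (-0.47), Bub1 (-0.44) and Cenpf (-0.38), and the highest were Ube2c (0.30), a ubiquitin carrier of the anaphase-promoting complex, and Ccnb2 (0.27).

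**Figure D2:**
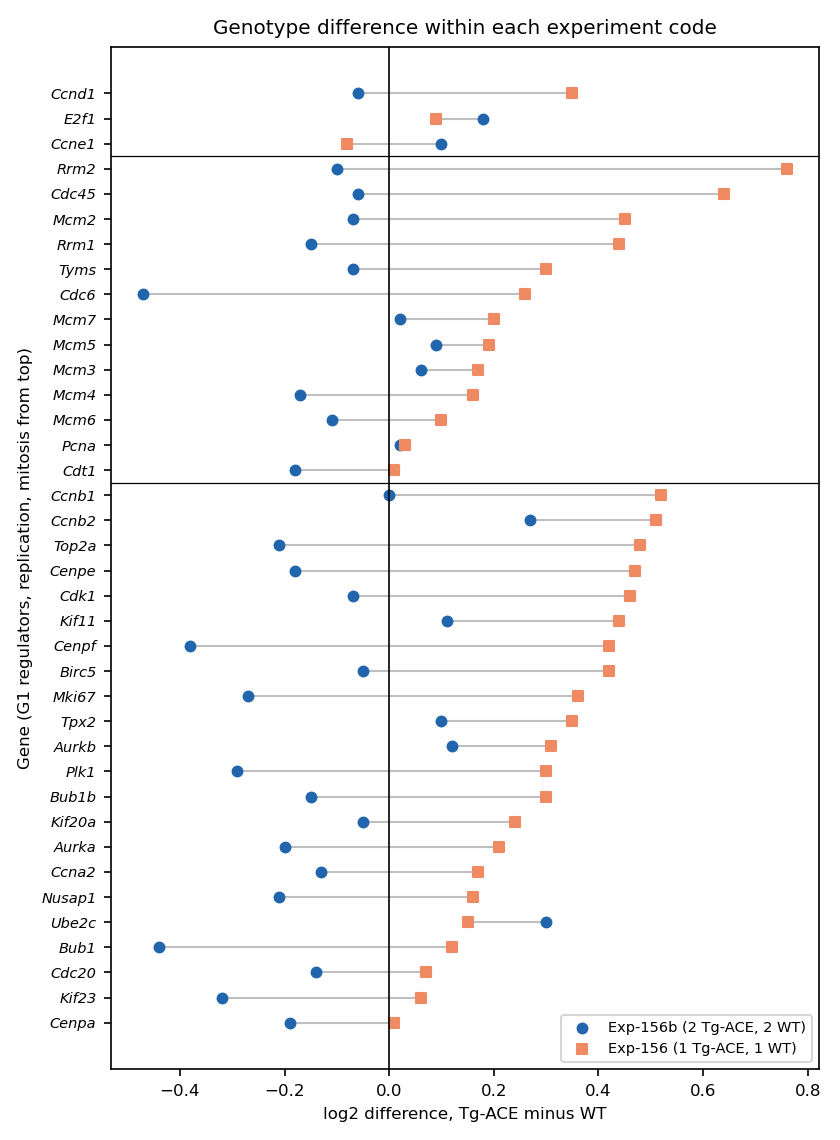
Log2 difference of Tg-ACE minus WT for each of the 38 members, within Exp-156b (circles, 2 libraries of each genotype) and within Exp-156 (squares, 1 library of each), by class. Squares lie right of 0 for 37 members and circles left of 0 for 26.

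For 26 members (68.4%) Tg-ACE was above WT in Exp-156 and below WT in Exp-156b, a pattern of 26.9% of all genes. The test of that difference, the interaction of genotype with experiment code, called 0 members and 0% of all genes in edgeR. At an unadjusted p under 0.05 it held 1 member and 981 genes, while DESeq2 called 13 genes and limma-voom 0, none a member. The interaction estimate (difference within Exp-156b minus difference within Exp-156) lay below 0 for 35 of 38 members, with a median of -0.37, against -0.00 for all genes. Rrm1, the large subunit of ribonucleotide reductase, gave the smallest p, with 40.5, 36 and 43.6 CPM in Tg-ACE replicates 1, 2 and 3 and 29.9, 43.8 and 44.7 CPM in WT replicates 1, 2 and 3 (estimate -0.59, SE 0.18, unadjusted p = 0.017, edgeR adjusted p = 0.647). Its low libraries were WT replicate 1 and, within Exp-156b, Tg-ACE replicate 2. The Exp-156 side of every one of these estimates rests on 1 library per genotype.

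Within Exp-156b, libraries of the same genotype also stood apart. Tg-ACE replicate 3 was above Tg-ACE replicate 2 for 36 of 38 members, where 50.4% of all genes were, with a median log2 ratio of 0.24 for replication genes and 0.58 for mitosis genes, against 0.00 for all genes. Among WT libraries, replicate 3 was above replicate 2 for 33 of 38 members and 50.2% of all genes. The medians were 0.10 for replication genes and 0.25 for mitosis genes. Ube2c held 2.14 times, Ccnb2 2.06 times, the spindle kinase Aurka 1.98 times and Mki67 1.85 times as much CPM in Tg-ACE replicate 3 as in Tg-ACE replicate 2. Among replication genes that ratio ran from 0.974 for Cdt1 to 1.83 for Rrm2. Tg-ACE replicate 2 was the lowest of the 4 Exp-156b libraries for 18 of 22 mitosis genes (81.8%), 8 of 13 replication genes (61.5%) and 22.7% of all genes. Members are not independent replicates, so these counts describe the libraries and are not tested.

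The other 39 mitosis genes of a separate list showed the same 2 libraries apart. Tg-ACE replicate 2 was lowest of the 4 for 29 of them, and Tg-ACE replicate 3 was above it for 38, with a median log2 ratio of 0.46. Mesothelial and fibroblast markers moved with it: 5 of their 6 genes were lowest in Tg-ACE replicate 2, and their sum was 227 and 470.4 CPM in Tg-ACE replicates 2 and 3, against 362 and 424 CPM in WT replicates 2 and 3. No marker of that list was at 0 in any library. B cell markers summed to 90.1 and 84.4 CPM in Tg-ACE replicates 2 and 3, against 56.4 and 128 CPM in WT replicates 2 and 3, in another order. Tg-ACE replicate 2 had the fewest genes with a count above 0, 15563, where the highest library had 15885. The part of these features in the low mitosis values was not tested.

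**Figure D3:**
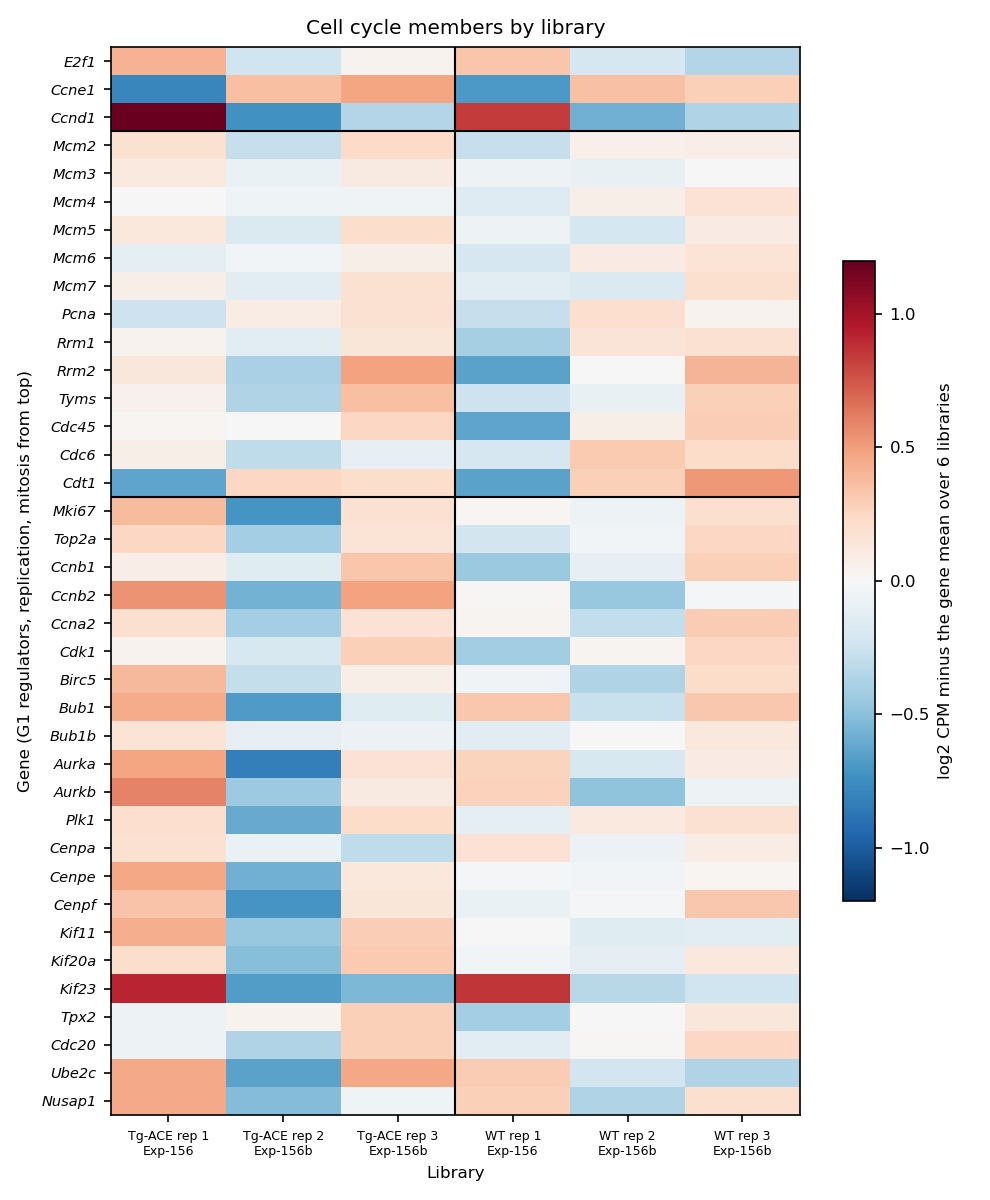
Log2 CPM of each member minus its mean over the 6 libraries (colour), with genes in rows by class and libraries in columns, Tg-ACE left of WT. Tg-ACE replicate 2 is blue, below the mean, for every mitosis gene but Tpx2, and Ccne1, Cdt1, Ccnd1 and Kif23 separate replicate 1 of both genotypes from the other libraries.

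The experiment codes, which pair 4 Exp-156b with 2 Exp-156 libraries, set some of the members apart. In a model with genotype as a term, edgeR called 9 of 38 members (23.7%), against 42.9% of all genes. In Exp-156b 5 members were higher, against 20.0% of all genes, and 4 were lower, against 23.0%. Those called were 3 of 13 in replication, 3 of 22 in mitosis and 3 of 3 among the G1 regulators. Libraries of the codes did not overlap for 12 members, against 59.8% of all genes: the 9 called and the mitosis genes Aurka, Cenpa and Nusap1, each lower in Exp-156b. All genes called were 46.5% higher and 53.5% lower in Exp-156b, and 58.1% higher with upper-quartile scaling. The median log2 fold change (Exp-156b minus Exp-156) was 0.17 for replication genes, of which 11 of 13 lay above 0, and -0.26 for mitosis genes, of which 18 of 22 lay below 0, against -0.01 for all genes. Omitting WT replicate 1 gave medians of -0.03 for replication and -0.46 for mitosis, and omitting Tg-ACE replicate 1 gave 0.36 and 0.01. Summed mitosis levels overlapped (178 ± 26.3 CPM in Exp-156b and 201 ± 27.5 CPM in Exp-156, SD, n = 4 and 2). Summed replication levels did not (475 ± 22.5 CPM in Exp-156b and 382 ± 28.3 CPM in Exp-156, SD, n = 4 and 2). That replication sum leans on Pcna (mean 191 CPM in Exp-156b and 145 CPM in Exp-156) and Cdt1 (57.8 and 29.7 CPM). It does not stand for the class as a whole.

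**Figure D4:**
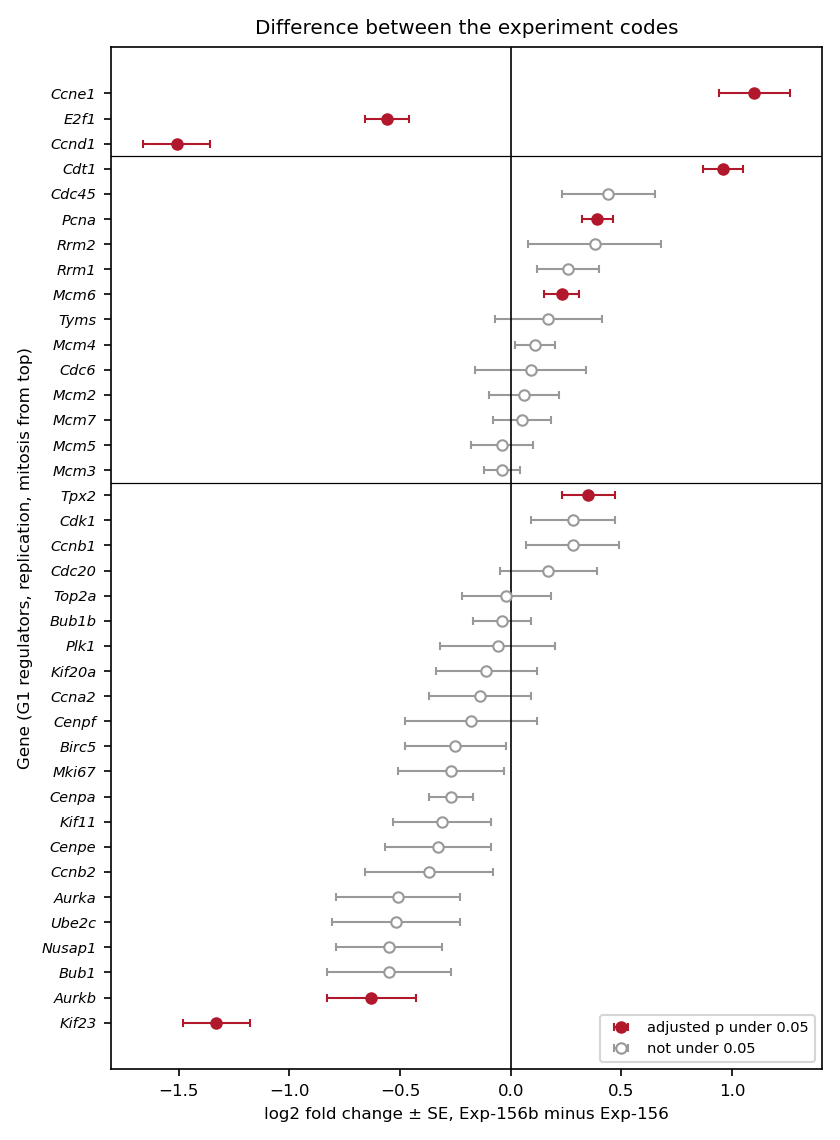
Log2 fold change ± SE of Exp-156b minus Exp-156 for the 38 members by class, from the model with genotype as a term; filled points passed an adjusted p of 0.05. Ccne1 (1.10) and Cdt1 (0.96) lie farthest right and Ccnd1 (-1.51) and Kif23 (-1.33) farthest left.

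The G1 cyclins went opposite ways. Ccnd1, the cyclin that answers to growth factors, fell to 5.74 and 7.4 CPM in Tg-ACE and 6.35 and 7.35 CPM in WT libraries of Exp-156b, against 21.5 CPM in Tg-ACE and 16.9 CPM in WT of Exp-156 (log2 fold change -1.51, SE 0.15, edgeR adjusted p = 0.000248). Its antisense partner Oraov1 did not pass (-0.05, adjusted p = 0.685). Ccne1, the cyclin of entry into replication, rose to 6.18 and 6.7 CPM in Tg-ACE and 6.14 and 5.88 CPM in WT of Exp-156b, against 2.81 CPM in Tg-ACE and 2.99 CPM in WT of Exp-156 (1.10, SE 0.16, adjusted p = 0.00141). The codes did not overlap for either cyclin. E2f1 fell to 15.9 and 19.3 CPM in Tg-ACE and 16.3 and 14.7 CPM in WT of Exp-156b, against 25.1 CPM in Tg-ACE and 23.6 CPM in WT of Exp-156 (-0.56, SE 0.10, adjusted p = 0.00408). Leaving out WT replicate 1 ended the E2f1 call (adjusted p = 0.0508).

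Of the replication genes, Cdt1 changed most. It rose to 55 and 53.6 CPM in Tg-ACE and 56.2 and 66.5 CPM in WT of Exp-156b, against 29.8 CPM in Tg-ACE and 29.7 CPM in WT of Exp-156 (0.96, SE 0.09, edgeR adjusted p = 0.000239). Pcna rose to 185 and 198 CPM in Tg-ACE and 200.5 and 179 CPM in WT of Exp-156b, against 147 CPM in Tg-ACE and 144 CPM in WT of Exp-156 (0.39, SE 0.07, adjusted p = 0.00477). Both separated the codes with no overlap, at nearly equal levels in the Exp-156 pair. Mcm6 rose to 45.2 and 48.6 CPM in Tg-ACE and 49.3 and 51.9 CPM in WT of Exp-156b, against 43 CPM in Tg-ACE and 40.2 CPM in WT of Exp-156 (0.23, SE 0.08, adjusted p = 0.0498). The Mcm6 call ended in DESeq2 (adjusted p = 0.0568), with the replicate block (edgeR adjusted p = 0.0701) and without any 1 of WT replicates 1, 2 and 3 and Tg-ACE replicate 3 (adjusted p up to 0.361). The other 5 helicase subunits, Mcm2, Mcm3, Mcm4, Mcm5 and Mcm7, had values between -0.04 and 0.11 and did not pass. Nor did the genes of deoxynucleotide supply, Rrm1 (0.26), Rrm2 (0.38) and the thymidylate synthase Tyms (0.17), or Cdc45 (0.44) and Cdc6 (0.09).

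**Figure D5:**
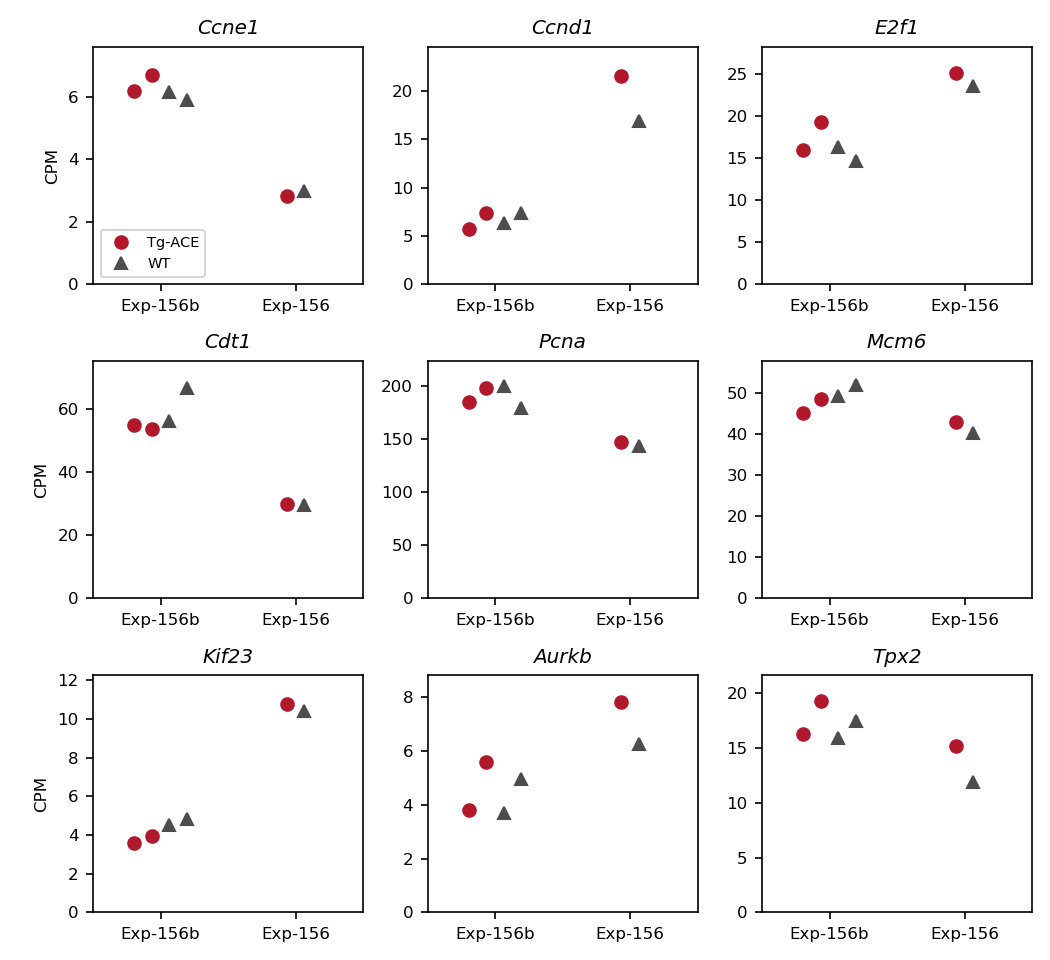
CPM per library of the 9 members called between experiment codes, with Exp-156b left of Exp-156; circles are Tg-ACE and triangles WT. Ccne1, Cdt1, Pcna, Mcm6 and Tpx2 are higher in Exp-156b and Ccnd1, E2f1, Kif23 and Aurkb lower, with the codes apart for each.

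Of the mitosis genes, Kif23, the motor of the central spindle in the last step of division, changed most. It fell to 3.59 and 3.95 CPM in Tg-ACE and 4.54 and 4.85 CPM in WT of Exp-156b, against 10.8 CPM in Tg-ACE and 10.4 CPM in WT of Exp-156 (-1.33, SE 0.15, edgeR adjusted p = 0.000409). Aurkb, the kinase of the chromosomal passenger complex, fell to 3.82 and 5.59 CPM in Tg-ACE and 3.69 and 4.97 CPM in WT of Exp-156b, against 7.81 CPM in Tg-ACE and 6.26 CPM in WT of Exp-156 (-0.63, SE 0.20, adjusted p = 0.0382). Both were lower in all 4 Exp-156b libraries than in either Exp-156 library. Tpx2, with the library values above, rose in Exp-156b (0.35, SE 0.12, adjusted p = 0.0417). The other 19 mitosis genes did not pass. Those farthest below 0 were Bub1 (-0.55), the spindle protein Nusap1 (-0.55), Ube2c (-0.52) and Aurka (-0.51). Those farthest above 0 were the mitotic kinase Cdk1 (0.28), its partner Ccnb1 (0.28) and the anaphase activator Cdc20 (0.17). Kif23, Pcna, Cdt1, Ccne1 and Ccnd1 kept their calls under all 14 alternatives, while Aurkb lost its call under 5 and Tpx2 under 6. The Aurkb call ended with upper-quartile scaling (adjusted p = 0.0662) and without WT replicate 1 or 2 or Tg-ACE replicate 1 or 2 (adjusted p up to 0.256). The Tpx2 call ended with experiment code as the only term (adjusted p = 0.0598) and without any WT library or Tg-ACE replicate 1 or 3 (adjusted p up to 0.294).

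Cell type markers moved with the codes as well, in both directions, beside the 42.9% of all genes called. Of the macrophage markers, 5 of 8 rows (7 genes, Itgam on 2 rows) were called lower in Exp-156b, with a median log2 fold change of -0.82. The surface antigen Adgre1 held 214 to 351 CPM in Exp-156b, against 632 and 646 CPM in Exp-156, and the integrin Itgam held 391 to 627 CPM on the more abundant row in Exp-156b, against 1641 and 1715 CPM in Exp-156. Fcgr1 (-1.80) and Csf1r (-0.42) fell too, whereas Lyz2 (-0.04), Cd68 (-0.04) and Mertk (-0.09) did not pass. The list thus split, and its sum mostly follows Lyz2.

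Markers of other leukocytes were mostly lower in Exp-156b. Neutrophil markers summed to between 11.1 and 12.7 CPM in Exp-156b, against 148 and 475 CPM in Exp-156, but Retnlg alone held 129 and 438 CPM of that in Exp-156. Of 4 neutrophil markers tested, Retnlg (-8.34) and S100a9 (-5.13) fell, while S100a8 (-0.15, edgeR adjusted p = 0.442) and Cxcr2 (-0.87, adjusted p = 0.0581) did not pass, and the defining Ly6g was at 0 in 5 libraries. Monocyte markers summed to between 36.9 and 135 CPM in Exp-156b, against 312 and 377 CPM in Exp-156, with 4 of 5 called lower and Chil3 (-0.26) not passing. Both lists therefore held genes that did not pass while the sum was lower. Eosinophil markers summed to between 10.3 and 21.2 CPM in Exp-156b, against 98.1 and 240.3 CPM in Exp-156 (2 of 2 tested fell). Ccr3, which did not pass the filter and was not tested, alone held 55.3 and 146 CPM of that in Exp-156. The granule gene Epx was at 0 in 3 Exp-156b libraries, but at only 0.141 and 0.123 CPM in Exp-156. Mast cell markers summed to between 10.5 and 21.6 CPM in Exp-156b, against 47.4 and 75 CPM in Exp-156 (6 of 6 fell). Dendritic cell markers summed to between 5.14 and 9.66 CPM in Exp-156b, against 29.9 and 34.3 CPM in Exp-156 (2 of 3 tested fell). Flt3, not tested either, held 12.2 and 14.2 CPM of that in Exp-156. T and NK cell markers, low throughout, fell for 5 of 6 tested genes, and 0 of 5 B cell markers passed.

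Mesothelial and fibroblast markers split by gene. Their sum was 227 to 470.4 CPM in Exp-156b, against 152 and 171 CPM in Exp-156, most of it collagen message. The collagen genes Col1a1 and Col1a2 (1.08), the matrix proteoglycan Dcn (1.02) and the mesothelial gene Upk3b (1.98) rose, the keratin Krt19 fell (-0.82, edgeR adjusted p = 0.0102) and Msln, the gene of mesothelin, did not pass (-0.49). The part of these cells, of sex or of the code itself in the member changes was not tested.

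Other genes of the same machinery, in lists that hold no member, were read beside the 42.9% of all genes called between codes. No gene of these lists was called between genotypes by edgeR. An unadjusted edgeR p under 0.05 there was reached by 831 of all 12827 genes (6.48%). In the other replication, other mitosis and G1 lists 0 genes reached it. Those that did were the inhibitor Cdkn1b (-0.29, unadjusted p = 0.0108, adjusted p = 0.76), the p53 target Cdkn1a (0.20, unadjusted p = 0.0322, adjusted p = 0.76) and the transcription factor Bhlhe40 (-0.17, unadjusted p = 0.0419, adjusted p = 0.76). With that share over all genes, they are not read as genotype differences. Of 26 other replication genes, 8 rose and 2 fell in Exp-156b (38.5%). Those that rose included the chromatin assembly subunit Chaf1b (0.97, adjusted p = 0.00152), the flap nuclease Fen1 (0.49), the Cdt1 inhibitor Gmnn (0.45) and the chromatin remodeller Hells (0.77), and the polymerase subunit Pold1 (-0.42) and the histone message binder Slbp (-0.35) fell. Exons of Fen1 share 78.8% of their length with an opposite-strand gene, so its value is uncertain. Of 39 other mitosis genes, 2 rose and 3 fell (12.8%). Espl1, the separase that parts sister chromatids, stood at 4.7 and 7.44 CPM in Tg-ACE and 5.86 and 5.25 CPM in WT of Exp-156b, against 19.3 CPM in Tg-ACE and 21.6 CPM in WT of Exp-156 (-1.82, SE 0.17, adjusted p = 0.000222). Ccnf, an F-box protein of G2, rose (0.95), and the microtubule regulator Stmn1 (-0.61) and the chromatin protein Hmgb2 (-0.50) fell.

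Genes around the G1 decision were read in the same way. Of 18 further G1 cyclin, kinase, E2F and pocket protein genes, 4 rose and 7 fell in Exp-156b (61.1%). Of the E2F genes, E2f3 (0.60) and the repressive E2f8 (1.39, edgeR adjusted p = 0.000594) rose, while E2f2 (-1.01, adjusted p = 0.00396) fell. The D-type cyclins Ccnd3 (-1.37, adjusted p = 0.000225) and Ccnd2 (-0.94), the growth regulator Myc (-1.03) and the retinoblastoma gene Rb1 (-0.54) fell too. Together with Ccnd1, each of the 3 D-type cyclins was thus lower in Exp-156b. Of 12 kinase inhibitors and growth arrest genes, 2 rose and 5 fell (58.3%). Cdkn1c, an imprinted inhibitor of G1 kinases, rose to 491 and 449 CPM in Tg-ACE and 166 and 322 CPM in WT of Exp-156b, against 26.6 CPM in Tg-ACE and 47.7 CPM in WT of Exp-156 (3.16, SE 0.46, adjusted p = 0.00149). All 4 Exp-156b libraries were above both Exp-156 libraries, though its exons share 30.7% of their length with another annotated gene. Cdkn1b (-1.03) and the antiproliferative gene Btg2 (-1.14) fell. Among genes of macrophage proliferation control, the resident peritoneal macrophage factor Gata6 (1.41) rose, and the transcription factor Maf (-1.75) and the growth factor receptor Csf1r (-0.42) fell.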

How the data were processed

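Poly-A RNA of 6 libraries had been prepared with a stranded kit and sequenced as single-end reads of 75 bases, as the labels' protocols state. The authors deposited 1 table of expected counts per gene, without normalization. The submitters' processing notes name STAR 2.5.0, RSEM 1.2.25, mm10 and GRCh38 without their roles. Between 11.0% and 11.4% of values per library were not whole, since expected counts divide reads shared between genes; 7 of the 38 members had such values. All were rounded. The 92 rows of spike-in sequences summed to 1 count and entered neither library sizes nor tests. No column lacked a sample. The series' design text names Tg-NKO where the labels say Tg-ACE, and the labels were followed.

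Tests were run in edgeR 4.0.16 (R 4.3.3) with TMM scaling, the filterByExpr filter, genotype and experiment code as terms, the quasi-likelihood F test and Benjamini-Hochberg adjustment at 0.05 over all 12827 genes. DESeq2 1.42.0, limma-voom (limma 3.58.1), other scalings and filters, genotype alone, a replicate block and each library left out were alternatives. CPM values use TMM-scaled totals. Exon lengths and positions came from GENCODE vM21. The fitting script was tested on simulated data. Precision is that of the counts, and depth limits cover counting error only. All 6 libraries differed from each other.

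Same-numbered libraries of the genotypes deviated together from their group means (correlation over genes 0.856, 0.484 and 0.637), as did the crossed pairs of replicates 2 and 3 (0.614 and 0.539). With experiment code removed, pairs 2 and 3 gave -0.177 and -0.1. The numbers come from the titles and go with the code.

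The members and gene lists were chosen with earlier results of these data known, and the count over the list of macrophage proliferation control is not reported here. Library values were printed for the G1 regulators and, in replication and mitosis each, for the 4 members of smallest p for genotype and for experiment code and the 3 highest per kilobase.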

Additional observations from a re-analysis of the deposited data

Results flagged for a closer look

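Among the 4 Exp-156b libraries, Plk1, the polo-like kinase of mitotic entry, stood at 2.63 and 4.65 CPM in Tg-ACE replicates 2 and 3, against 4.33 and 4.53 CPM in WT replicates 2 and 3. Rrm1 stood at 36 and 43.6 CPM in Tg-ACE replicates 2 and 3, against 43.8 and 44.7 CPM in WT replicates 2 and 3. Both are given here because Tg-ACE replicate 2 lay far below the other 3 by Dixon's ratio of gap to range. That ratio marks about 1 in 20 groups by chance, and 38 members were looked at.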

How the results depend on the processing

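No cell cycle member was called between genotypes under any alternative run, while over all genes 2 calls became 9 with no filter on low counts, 38 in DESeq2 and 0 with genotype alone. Named members kept their direction between genotypes in all 120 values from other scalings, filters, tools and terms, and the medians fell below 0 in Exp-156b alone (-0.14 for mitosis, -0.07 for replication). Leaving out 1 library turned the genotype log2 fold change of Cdc45 (-0.06 to 0.30), Ccnd1 (-0.06 to 0.22), Pcna (-0.03 to 0.07), Mcm6 (-0.11 to 0.00) and Ccne1 (-0.01 to 0.10). Between experiment codes, leaving out 1 library gave 3429 to 5027 calls over all genes and 5 to 8 among members, with the fewest members without WT replicate 1 and the fewest genes without Tg-ACE replicate 1, and a replication median of -0.03 to 0.36. It turned Cdc6 (-0.27 to 0.47), Mcm3 (-0.09 to 0.02) and Mcm5 (-0.11 to 0.05), and upper-quartile scaling turned Mcm3 (0.04) and Mcm5 (0.04). Interaction calls over all genes numbered 13 in DESeq2 and 0 to 16 without 1 library (16 without WT replicate 3), never a member, and the interaction could not be fitted without either Exp-156 library. A fit with the replicate block in place of the code called 0 members between genotypes and 8 between codes, and ended the Mcm6 call. Leaving out either Exp-156 library leaves the genotype effect estimated from Exp-156b alone, so those settings are not separate checks of it. Apart from this and fewer libraries where a library was left out, the cause of the shifts in this paragraph was not tested. Members of low count, such as Bub1 and Cdc6, have genotype standard errors above 0.2 on the log2 scale. So has Mki67 (0.23), with 355 to 852 counts per library. Ace, at a log2 fold change of 1.95 (SE 0.23), did not pass between genotypes. Differences well above a standard error could therefore go uncalled with this number of libraries, and the absence of calls excludes no such difference.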
